A study of Rattus norvegicus with 19 samples.

Results

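The genes described here belong to families that act in the extracellular matrix or in the binding of cells to it. They comprise 37 collagen chains, 10 laminin chains, 17 matrix metalloproteinases, the 4 tissue inhibitors of metalloproteinases, 15 integrin chains and 2 kindlins. These are 85 genes in all out of 13811 genes named on the arrays. They were chosen by symbol alone, as every probe set annotated to exactly 1 gene of these families, which gave 91 probe sets on array type a (65 genes) and 38 on array type b (33 genes), 129 in all. A probe set is a group of short oligonucleotides on an Affymetrix array that together report the level of 1 transcript. The treated rats received pregnenolone carbonitrile (PCN), a steroid that activates the pregnane X receptor of rodents, at 100 mg/kg into the peritoneum after a night without food, and their livers were collected 8 h later. The control rats received corn oil, the vehicle, on the same schedule. Array type a was hybridised with 5 PCN and 5 corn oil livers, and array type b with 5 PCN and 4 corn oil livers. The replicate numbers are those of the labels, which call them biological replicates, and corn oil replicate 2 has no array of type b here. The strain, sex and age of the adult rats are not given in the sources used here. The study asked whether PCN turns on genes outside drug metabolism that protect against stress.

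Collagens are trimers of chains wound around each other. The fibrillar types I, III and V form the fibres that thicken in liver fibrosis, whereas type IV, together with laminins, forms the sheet-like basement membrane. In liver most fibrillar collagen is made by hepatic stellate cells and portal fibroblasts. Metalloproteinases cut these proteins and the Timp proteins block the proteases. Integrins are receptors of an alpha and a beta chain that tie cells to the matrix, and kindlins bind the inner tail of the beta chain and help to switch the receptor on.

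RefSeq holds a promoter window, from 250 bases before to 50 bases after the transcript start, for 64 of the 85 genes (assembly GRCr8). The windows of 4 genes are shown because the data below bear on them. Col4a1 and Col4a2, the chains of 1 type IV trimer, lie head to head on chromosome 16 with their starts 77 bases apart, so that their windows share 176 bases, which are in capitals. Col1a2 and Timp1 were among the probe sets with the higher values after PCN described below, although neither passed the test. In Col1a2 the capitals mark CCAAT, read here as ATTGG on the opposite strand, and TATAAA. In Timp1 they mark TGAGTAA, a sequence of the type bound by AP-1 factors. Searched on both strands, CCAAT occurred in 37.5%, TATAAA in 14.2% and TGAGTAA in 2.9% of the 33469 windows in the table. All are written 5′ to 3′ on the strand of the gene.
Col4a1, chr16:84885347-84885646, plus strand: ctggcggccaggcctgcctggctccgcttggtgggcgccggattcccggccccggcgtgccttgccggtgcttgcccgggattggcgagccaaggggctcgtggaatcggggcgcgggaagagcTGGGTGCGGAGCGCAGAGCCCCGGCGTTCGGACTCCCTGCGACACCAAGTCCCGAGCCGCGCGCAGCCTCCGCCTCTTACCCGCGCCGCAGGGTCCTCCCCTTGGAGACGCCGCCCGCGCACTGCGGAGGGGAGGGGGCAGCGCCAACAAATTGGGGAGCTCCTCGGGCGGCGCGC
Col4a2, chr16:84885471-84885770, minus strand: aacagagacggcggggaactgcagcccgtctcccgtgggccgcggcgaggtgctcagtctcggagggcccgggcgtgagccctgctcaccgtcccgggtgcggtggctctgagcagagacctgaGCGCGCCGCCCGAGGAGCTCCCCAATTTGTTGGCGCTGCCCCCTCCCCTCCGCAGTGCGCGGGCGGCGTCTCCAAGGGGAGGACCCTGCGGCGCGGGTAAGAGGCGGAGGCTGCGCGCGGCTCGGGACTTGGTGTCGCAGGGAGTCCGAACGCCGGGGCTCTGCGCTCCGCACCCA
Col1a2, chr4:33518307-33518606, plus strand: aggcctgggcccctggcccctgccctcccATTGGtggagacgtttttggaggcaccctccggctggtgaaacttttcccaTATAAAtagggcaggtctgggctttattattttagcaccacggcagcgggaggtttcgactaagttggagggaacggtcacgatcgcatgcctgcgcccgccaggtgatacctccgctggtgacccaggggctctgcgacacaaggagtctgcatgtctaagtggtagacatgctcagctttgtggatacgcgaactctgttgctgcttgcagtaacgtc
Timp1, chrX:3771073-3771372, minus strand: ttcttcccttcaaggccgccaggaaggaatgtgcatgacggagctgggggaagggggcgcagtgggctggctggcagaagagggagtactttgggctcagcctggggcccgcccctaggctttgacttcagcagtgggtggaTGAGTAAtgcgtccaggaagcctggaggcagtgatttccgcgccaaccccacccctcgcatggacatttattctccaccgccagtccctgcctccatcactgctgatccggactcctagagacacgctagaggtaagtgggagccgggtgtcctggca

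The values are log2 expression per probe set, so a difference of 1 is a 2-fold difference, and the number of arrays limits the precision. Probe sets with a mean in the lowest 30% of their array type (below 6.67 on type a and 5.51 on type b) were not tested, which left 61 member probe sets of type a and 26 of type b, from 63 of the 85 genes. The other 22 genes were tested on neither array type. Each array type was fitted alone over all its tested probe sets with limma, and a probe set was called at an adjusted p below 0.05. The hepatocyte markers were bright in every liver: the mean of the 9 tested on type a ran from 13.79 to 13.95 in PCN livers and from 13.50 to 13.94 in corn oil livers. Alas1, which starts heme synthesis and is a known PCN target, was 3.33-fold higher in PCN livers (limma, adjusted p = 0.000119). The other genes set as checks of the treatment, Cyp3a18 and Cyp3a23-3a1, were 2.49-fold and 1.57-fold higher (limma, adjusted p = 0.00384 and 0.00543). Some arrays stood apart. Corn oil replicate 2 of type a differed from the rest of its group by a root mean square of 0.476, against at most 0.375 for any other array of type a within its group. PCN replicate 5 of type b was closer to the corn oil arrays (0.231) than to its own group (0.264). Where leaving out either array moved the value of a member described below by over 1.5 times or changed its call, that value is given too. Values that lay within 0.07 of 0 both with and without the array were exempt.

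Kindlin-2 was the member that rose on both array types. Fermt2, which encodes it, read 11.65, 11.75, 11.59, 11.66 and 11.56 in PCN replicates 1 to 5 on type a, against 11.10, 11.19, 10.88, 11.09 and 11.14 in corn oil replicates 1 to 5. Every PCN liver lay above every corn oil liver. The rise was 1.48-fold (log2 fold change 0.56 ± 0.08 SE, adjusted p = 0.00394, limma, n = 5 each), and it was called under all 12 alternative settings and without any 1 array (adjusted p up to 0.0207). On type b a different probe set of Fermt2 read 8.27, 8.25, 7.92, 7.71 and 7.61 in the PCN livers, against 6.67, 6.89, 7.10 and 7.43 in corn oil replicates 1, 3, 4 and 5. The groups again did not overlap, and the rise was 1.91-fold (0.93 ± 0.17 SE, adjusted p = 0.0147, limma, 5 against 4). Without corn oil replicate 4 the adjusted p was 0.0528, with the replicate number as a block it was 0.0655, in an unmoderated test it was 0.0882, and without PCN replicate 5 it was 0.00683 with a log2 fold change of 1.02. The labels give the livers of both array types the same replicate numbers and do not say whether they are the same animals, so the array types are not counted as independent samples of rats. Another probe set of Fermt2, on type b, was too dim to be tested and averaged 4.97 ± 0.16 in PCN livers and 4.92 ± 0.18 in corn oil livers (SD, n = 5 and 4). Fermt3, the kindlin of blood cells, averaged 8.07 ± 0.21 in PCN livers and 7.99 ± 0.25 in corn oil livers on type a (SD, n = 5 each, adjusted p = 0.792, limma). In bulk liver, fewer cells of a type and less RNA per cell cannot be told apart, for this and every later result.

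**Figure D1:**
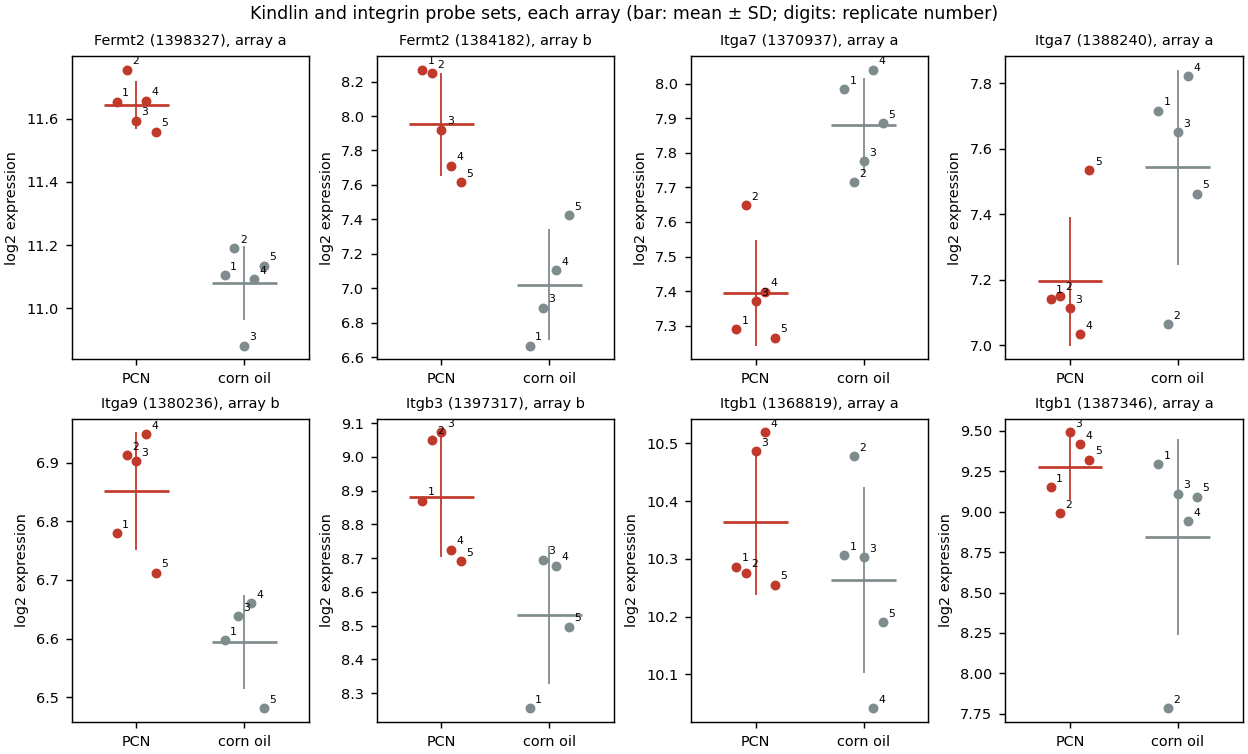
Log2 expression of kindlin and integrin probe sets in each liver, PCN left and corn oil right; points are arrays labelled with their replicate number, horizontal bars are means and vertical bars ± SD. The PCN livers lie above all corn oil livers for Fermt2 on both array types and for Itga9, and below them for the called Itga7 probe set; for 1 Itgb1 probe set corn oil replicate 2 reads 7.79 and the other corn oil livers 8.94 to 9.29.

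Among the integrins, Itga7 fell and no other chain was called. Itga7 encodes a laminin-binding alpha chain best known from skeletal muscle, where it pairs with the beta 1 chain. Its called probe set read 7.29, 7.65, 7.37, 7.40 and 7.27 in PCN livers, against 7.98, 7.71, 7.78, 8.04 and 7.89 in corn oil livers. All PCN livers lay below all corn oil livers, a 1.40-fold lower level by limma with an adjusted p of 0.0182 (log2 fold change -0.48 ± 0.09 SE, n = 5 each). The call was lost without corn oil replicate 4 (adjusted p = 0.0551), without PCN replicate 1 (0.0568), in an unmoderated test (0.0606) and when the replicate number was blocked (0.0731). A second Itga7 probe set averaged 7.19 ± 0.20 in PCN livers and 7.54 ± 0.30 in corn oil livers (SD, n = 5 each), a log2 fold change of -0.35 ± 0.14 SE with an adjusted p of 0.222. Corn oil replicate 2 read 7.06 there, within the range of the PCN livers, and without that array the log2 fold change was -0.47 (adjusted p = 0.0427, limma). Without corn oil replicate 4 limma's adjusted p for this probe set was 0.418. The remaining Itga7 probe set, too dim to be tested, averaged 5.34 ± 0.18 in PCN livers and 5.30 ± 0.04 in corn oil livers.

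Itga9, an alpha chain that binds tenascin, missed the threshold on type b. It read 6.78, 6.91, 6.90, 6.95 and 6.71 in PCN livers, against 6.60, 6.64, 6.66 and 6.48 in corn oil livers, with no overlap. The log2 fold change was 0.26 ± 0.07 SE (adjusted p = 0.0502, limma). Without PCN replicate 5 it was 0.29 (adjusted p = 0.0202), whereas without corn oil replicate 1 limma's adjusted p was 0.114. Besides the fit without PCN replicate 5, Itga9 was called under 6 other settings, with adjusted p values from 0.0207 with array weights to 0.0498 with robust variances. Centring each array on the 100 probe sets that the array types share gave -0.02 (adjusted p = 0.874). Itgb3, the beta chain of the platelet fibrinogen receptor and of a vitronectin receptor, read 8.87, 9.05, 9.07, 8.73 and 8.69 in PCN livers and 8.26, 8.69, 8.68 and 8.50 in corn oil livers. These groups overlapped at their edges, and the log2 fold change of 0.35 ± 0.12 SE did not pass (adjusted p = 0.0926, limma). Without PCN replicate 5 it was 0.40 (adjusted p = 0.0491), and without corn oil replicate 1 limma's adjusted p was 0.22. Leaving out PCN replicate 5 also raised the calls over all probe sets of type b from 577 to 1477. The platelet markers measured beside it had log2 fold changes of -0.24 (Pf4 on type a, adjusted p = 0.59) and -0.21 (Gp9 on type b, adjusted p = 0.113). On type b 3 of 4 endothelial and 2 of 2 macrophage markers were positive, against 41.1% of all probe sets tested there. Limma called 0 of these markers, against 5.4% of all. On type a 3 of 7 and 6 of 7 were positive, against 50% of all. The part of any of these cells in the Itgb3 result was not tested.

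The other tested integrin probe sets lay within 0.2 of 0 in their log2 fold change, apart from 1 of Itgb1, and none was called. Itgb1, the common beta chain of matrix receptors, had log2 fold changes of 0.10 ± 0.10 and 0.43 ± 0.24 SE by its 2 probe sets (adjusted p = 0.657 and 0.394, limma). The second value contained the low reading of corn oil replicate 2, 7.79, where the other corn oil livers read 8.94 to 9.29 and the PCN livers 8.99 to 9.49. Without that array the log2 fold changes of the Itgb1 probe sets were 0.15 and 0.16 (adjusted p = 0.404 and 0.458, limma). Itga1, the alpha chain of a collagen receptor, averaged 9.09 ± 0.25 in PCN livers and 9.27 ± 0.33 in corn oil livers (SD, n = 5 each, adjusted p = 0.628), and Itga5, that of the fibronectin receptor, 7.59 ± 0.04 and 7.61 ± 0.16 (SD, n = 5 and 4, adjusted p = 0.919). Itgb5 had log2 fold changes of -0.11 ± 0.12 and -0.09 ± 0.11 SE on type a and -0.18 ± 0.07 SE on type b (adjusted p = 0.688, 0.71 and 0.126). The log2 fold change of Itga1 without corn oil replicate 2 was -0.11 and that of the dimmer Itgb5 probe set of type a -0.19 (adjusted p = 0.745 and 0.387). A further Itgb5 probe set of type b, too dim to be tested, read 4.36 to 4.55 in PCN livers and 4.57 to 4.81 in corn oil livers. Itga6, a laminin receptor chain, had values of -0.10 ± 0.10, -0.02 ± 0.09 and, on type b, 0.15 ± 0.13 SE, with no call. Without corn oil replicate 2 the first of these was -0.16 (adjusted p = 0.385), and without PCN replicate 5 the last was 0.23 (adjusted p = 0.18).

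None of the collagens that the liver lays down in fibres passed the test. Most of their probe sets had higher means after PCN. The exceptions were Col5a3 and 1 probe set of Col5a1, which were lower, and 1 of Col1a1, which was nearly level. Col5a3, a type V chain, averaged 7.11 in PCN livers and 7.26 in corn oil livers (log2 fold change -0.16 ± 0.09 SE, adjusted p = 0.412, limma). Col3a1, the chain of type III collagen, read 11.57, 11.52, 11.88, 11.64 and 11.53 in PCN livers, against 11.47, 11.45, 11.01, 11.02 and 11.05 in corn oil livers. The PCN livers were all above the corn oil livers, of which replicates 1 and 2 came close to them. The log2 fold change was 0.43 ± 0.12 SE, 1.34-fold, with an adjusted p of 0.0824 (limma, n = 5 each). Without corn oil replicate 2 it was 0.49 (adjusted p = 0.0459), and without corn oil replicate 4 it was 0.38 (adjusted p = 0.193).

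Type I collagen is made of 2 chains of Col1a1 and 1 of Col1a2. Col1a1 read 8.80, 8.49, 8.79, 9.16 and 8.59 in PCN livers, against 8.79, 8.74, 8.17, 7.92 and 8.14 in corn oil livers by its brighter probe set (log2 fold change 0.41 ± 0.18 SE, adjusted p = 0.261, limma). Corn oil replicates 1 and 2 lay inside the PCN range. Its other probe set, on which these livers read 8.40 and 8.47 and lay above all PCN livers (8.16 to 8.40), gave 0.01 ± 0.10 SE (adjusted p = 0.956), so the Col1a1 probe sets disagreed. Col1a2 read 9.01, 8.82, 9.58, 9.39 and 8.92 in PCN livers, against 8.88, 9.25, 8.75, 8.42 and 8.42 in corn oil livers (0.40 ± 0.19 SE, adjusted p = 0.289). Its second probe set gave 0.36 ± 0.17 SE (adjusted p = 0.301) and held 8.86 in corn oil replicate 2, above all PCN livers, against 7.83 to 8.42 in the other corn oil livers. Without that array it gave 0.53 (adjusted p = 0.0384, limma), whereas without corn oil replicate 4 limma's adjusted p was 0.526. Col5a2, a chain of the type V collagen found inside type I fibres, had 0.31 ± 0.14 and 0.20 ± 0.16 SE, and Col5a1 had 0.15 ± 0.09 and -0.10 ± 0.09 SE (adjusted p from 0.291 to 0.614). Without corn oil replicate 2 the second Col5a2 value was 0.34 (adjusted p = 0.139). Of the 9 tested probe sets of Col1a1, Col1a2, Col3a1, Col5a1 and Col5a2, 8 had a positive log2 fold change, with a median of 0.31. Over all 11106 probe sets tested on type a the median was 0.00 and 50% were positive. Limma called 0 of the 9, and 2 had an unadjusted p below 0.05, against 3.25% and 17.7% of all probe sets tested on type a. The 9 come from 5 genes measured in the same livers, so they are not independent and their count was not tested. Over all fibrillar collagens, which adds Col5a3 and chains that are not typical of liver, 10 of 13 probe sets on type a were positive with a median of 0.15. On type b 1 of 3 was positive with a median of -0.08, against 41.1% positive and a median of -0.03 over all tested there.

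**Figure D2:**
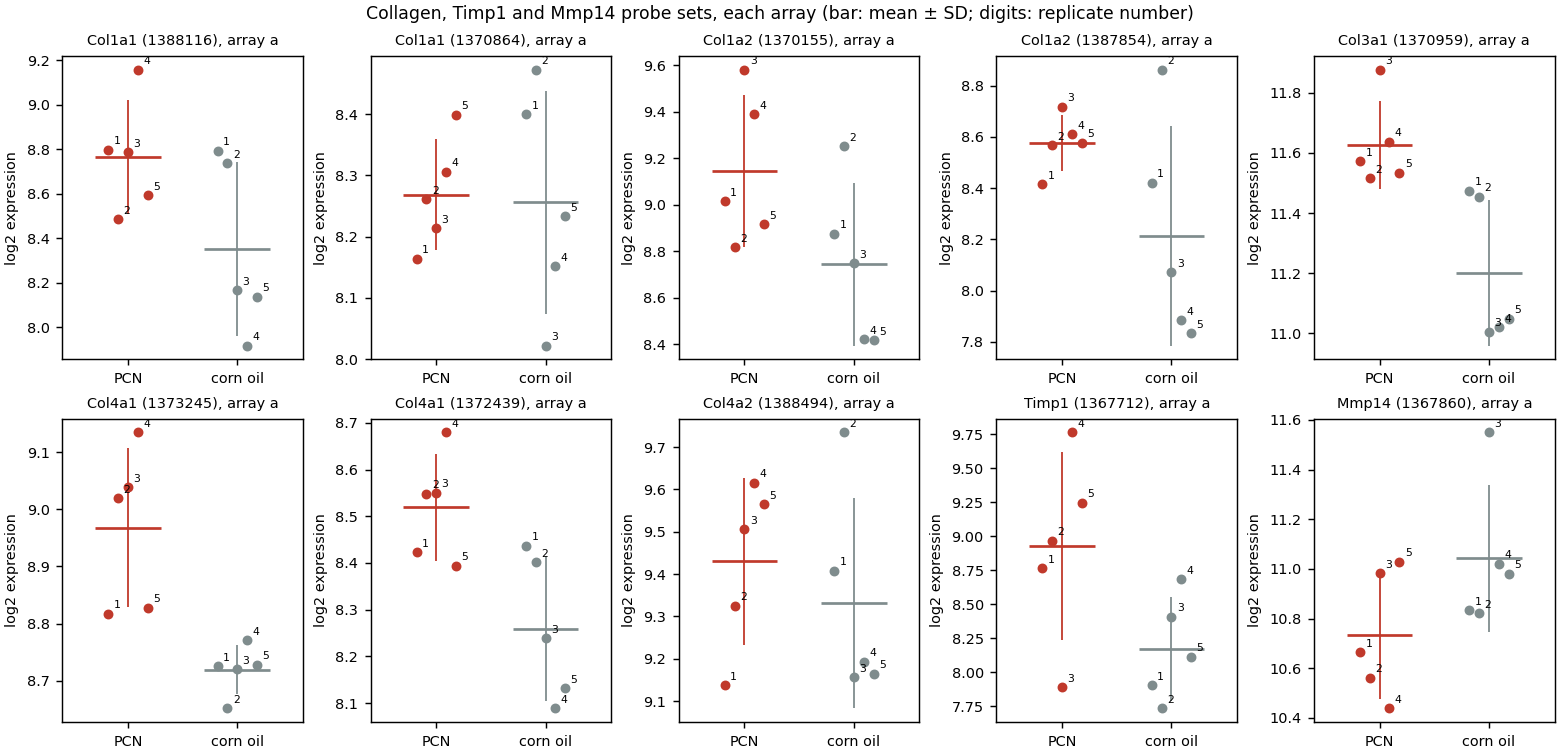
Log2 expression of collagen, Timp1 and Mmp14 probe sets of array type a in each liver, PCN left and corn oil right; points are arrays labelled with their replicate number, horizontal bars are means and vertical bars ± SD. Corn oil replicates 1 and 2 read above the other corn oil livers for Col1a1, Col1a2 and Col3a1, and Timp1 ranges from 7.89 to 9.76 among the PCN livers.

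Markers of the cells that make these collagens were measured beside them. Of 10 tested stellate cell and fibroblast markers on type a, limma called 0, with 1 at an unadjusted p below 0.05, and 6 had a positive log2 fold change (range -0.16 to 0.38, median 0.09). Over all probe sets tested on type a, 3.25% were called, 17.7% had an unadjusted p below 0.05 and 50% were positive. These shares count probe sets, whereas the markers are counted as genes. Their mean per array ran from 8.27 to 8.51 in PCN livers and from 8.13 to 8.43 in corn oil livers. Among them were Des at -0.06, Lrat at -0.16, Vim at 0.38 and Rgs5 at 0.33, with adjusted p values of 0.726, 0.615, 0.392 and 0.156. On type b Colec11, a secreted collectin that marks stellate cells, rose 1.40-fold (log2 fold change 0.49 ± 0.10 SE, adjusted p = 0.0217, limma), a call that was lost with the replicate number blocked (adjusted p = 0.1), in an unmoderated test (0.0648), after quantile normalization (log2 fold change 0.23, adjusted p = 0.104), after cyclic loess (0.25, adjusted p = 0.0956), on centring with the common probe sets (0.21, adjusted p = 0.0967) and when 1 of 5 arrays was left out (highest at 0.072 for corn oil replicate 4). The other 2 stellate markers there, Des and Pdgfrb, had values of -0.19 and -0.11. Limma called 5.4% of all probe sets tested on type b. The part of the number of stellate cells in the collagen values was not tested.

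Of 4 pairs of fibrillar collagens, 1 varied together between animals of a group by Pearson's r after adjustment, and none did by Spearman's rho. Across the 10 arrays of type a, deviations from the group means of Col1a2 and Col3a1 correlated with Pearson's r = 0.83 (exact permutation p = 0.00361 within groups, adjusted p = 0.0325 over 9 gene pairs) and Spearman's rho = 0.70 (exact permutation p = 0.0327, adjusted p = 0.0981). Without the 2 arrays farthest from the median of Col1a2, corn oil replicate 2 and PCN replicate 3, r was 0.63. Each gene entered by its brightest tested probe set. The other Col1a1 probe set, which disagreed with the brightest in its fold change, was not used here. Col1a1 gave r = 0.78 with Col1a2 and 0.80 with Col3a1 (exact permutation p = 0.0163 and 0.0219, adjusted p = 0.0656 for each), with rho of 0.77 and 0.85 (exact permutation p = 0.0189 and 0.00944, adjusted p = 0.085 for each). Without corn oil replicate 1 and PCN replicate 4 these r were 0.84 and 0.83. After quantile normalization r was 0.67 for Col1a2 with Col3a1, 0.71 for Col1a1 with Col1a2 and 0.58 for Col1a1 with Col3a1. With each array centred on its median these were 0.84, 0.79 and 0.83. For Col1a1 with Col3a1, r was 0.36 within the 5 PCN livers and 0.97 within the 5 corn oil livers, and the difference was not tested. Col3a1 with Col5a2 gave r = 0.66 and rho = 0.33 (exact permutation p = 0.0808 and 0.401, adjusted p = 0.182 and 0.515). Such values were common on these arrays: 379 other probe sets of the 11105 correlated more closely with Col1a2 than Col3a1 did, and 562 more closely with Col1a1 than Col3a1 did. All tests were two-sided. The other 5 pairs, among them Col4a1 with Col4a2 (r = 0.11, rho = 0.21, exact permutation p = 0.776 and 0.614) and Col1a1 with Timp1 (r = -0.21, rho = -0.35, exact permutation p = 0.533 and 0.334), had adjusted p values of at least 0.405 for r. For Col4a1 with Col4a2, r was 0.51 within the PCN livers and -0.835 within the corn oil livers. For Col1a1 with Timp1 it was 0.33 and -0.90, and neither difference was tested.

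**Figure D3:**
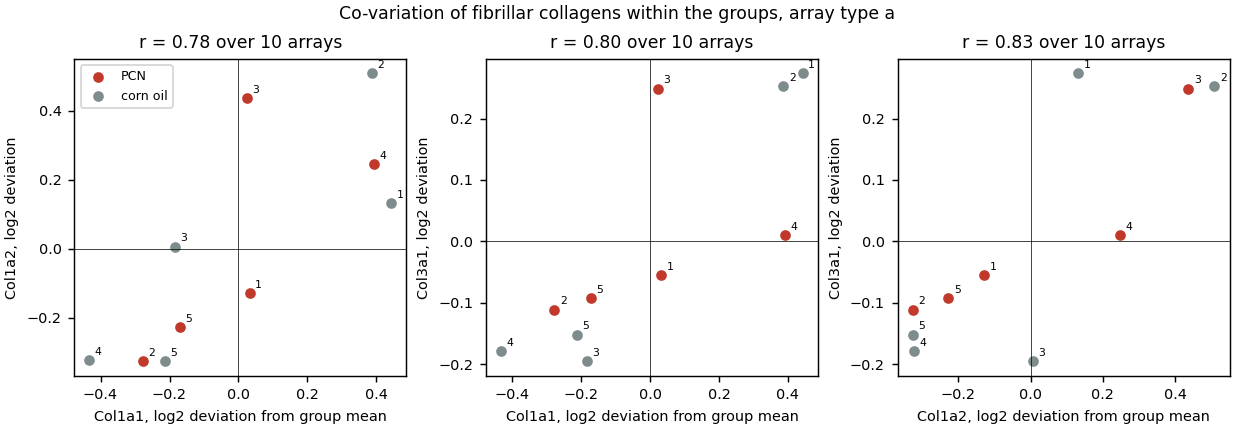
Deviation from the group mean in log2 units of the brightest probe sets of Col1a1, Col1a2 and Col3a1 against each other, for the 5 PCN and 5 corn oil arrays of type a, labelled with the replicate number. Over all 10 arrays r runs from 0.78 to 0.83, but for Col1a1 with Col3a1 it is 0.36 within the PCN livers and 0.97 within the corn oil livers; corn oil replicates 1 and 2 and PCN replicates 3 and 4 hold the high ends.

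The basement membrane chain Col4a1 had higher means by both of its probe sets. It read 8.82, 9.02, 9.04, 9.13 and 8.83 in PCN livers, against 8.73, 8.65, 8.72, 8.77 and 8.73 in corn oil livers, without overlap (log2 fold change 0.25 ± 0.09 SE, adjusted p = 0.148, limma). The other probe set read 8.42, 8.55, 8.55, 8.68 and 8.39 in PCN livers and 8.44, 8.40, 8.24, 8.09 and 8.13 in corn oil livers, with some overlap (0.26 ± 0.09 SE, adjusted p = 0.174). Col4a2, which shares the promoter stretch printed above, read 9.14, 9.33, 9.51, 9.62 and 9.57 in PCN livers, against 9.41, 9.73, 9.16, 9.19 and 9.16 in corn oil livers. Its groups overlapped, at 0.10 ± 0.14 SE (adjusted p = 0.748), and the difference from Col4a1 was not tested. Corn oil replicate 2 was its highest array, and leaving it out gave 0.20 for Col4a2 (adjusted p = 0.355) and 0.23 and 0.29 for the Col4a1 probe sets (adjusted p = 0.178 and 0.118, limma). Col4a6, another type IV chain, was lower by both of its probe sets on type b without overlap: at most 5.92 in PCN livers and at least 5.93 in corn oil livers by the tested one (log2 fold change -0.14 ± 0.06 SE, adjusted p = 0.18), and 3.64 to 3.77 and 3.78 to 3.91 by the one too dim to be tested. Col18a1, whose C-terminal fragment is endostatin, had -0.25 ± 0.10 and -0.08 ± 0.13 SE by its 2 probe sets (adjusted p = 0.196 and 0.797), and corn oil replicate 2 was the lowest array for the second, which was -0.19 without it (adjusted p = 0.293).

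No laminin was called. Of the 7 laminin probe sets tested on type a, limma called 0, with 0 at an unadjusted p below 0.05 against 17.7% of all probe sets tested, and log2 fold changes ran from -0.13 (Lamb2, -0.03 without corn oil replicate 2) to 0.32 (Lama3). Both laminins tested on type b had an unadjusted p below 0.05 and were lower, against 27.3% of all there in either direction, and limma called neither. Lama3, a chain of epithelial laminin, read 8.80, 8.02, 8.22, 8.61 and 7.97 in PCN livers, against 8.97, 7.83, 7.60, 7.73 and 7.90 in corn oil livers, and the highest reading of all was in corn oil replicate 1. Lamb1 and Lamc1, the beta and gamma chains of the most widespread laminins, had 0.05 ± 0.09 and, by 2 probe sets, 0.07 ± 0.13 and -0.02 ± 0.13 SE. Leaving out corn oil replicate 2 put Lamb1 at 0.11 and the first Lamc1 probe set at -0.07 (adjusted p = 0.404 and 0.598). On type b, Lamc3 averaged 7.81 ± 0.11 in PCN livers and 8.05 ± 0.13 in corn oil livers (log2 fold change -0.24 ± 0.09 SE, adjusted p = 0.113, limma), and Lamb3 6.55 ± 0.12 and 6.72 ± 0.11 (-0.17 ± 0.08 SE, adjusted p = 0.179; SD, n = 5 and 4 for both).

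Among the Timp genes, Timp1 had the largest mean difference and the widest spread between livers. Timp1, which blocks most metalloproteinases and is induced in injured liver, read 8.77, 8.97, 7.89, 9.76 and 9.25 in PCN livers, against 7.91, 7.73, 8.41, 8.68 and 8.11 in corn oil livers. PCN replicate 3 lay in the corn oil range and PCN replicates 1, 2, 4 and 5 above it. The difference was 1.69-fold (log2 fold change 0.76 ± 0.29 SE) and did not pass (adjusted p = 0.204, limma, n = 5 each); it was 0.55 without PCN replicate 4 and 1.02 without PCN replicate 3. Timp2, which also takes part in the activation of Mmp2, averaged 9.19 ± 0.26 in PCN livers and 9.17 ± 0.09 in corn oil livers (SD, n = 5 each, adjusted p = 0.936), while its dim probe set was not tested. Timp3, which is bound to the matrix, averaged 9.40 ± 0.10 in PCN livers and 9.41 ± 0.37 in corn oil livers by its brighter tested probe set and 6.62 ± 0.08 and 6.78 ± 0.44 by the other (SD, n = 5 each), with its highest reading of each in corn oil replicate 2 (10.04 and 7.43). The log2 fold changes of these were 0.00 and -0.16 with that array and 0.16 and 0.00 without it. Timp4 read 6.93, 6.84, 6.96, 6.76 and 6.99 in PCN livers, against 7.14, 6.99, 7.08 and 7.16 in corn oil livers on type b. Its groups barely separated, at -0.20 ± 0.07 SE (adjusted p = 0.096, limma).

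Most metalloproteinases were dim: 11 of 18 probe sets on type a and 1 of 6 on type b were below the filter. Mmp9, the type IV collagenase of inflammatory cells, averaged 5.61 ± 0.15 in PCN livers and 5.53 ± 0.14 in corn oil livers by 1 probe set and 5.58 ± 0.22 and 5.61 ± 0.16 by the other. Mmp13, the interstitial collagenase of rodents, averaged 4.61 ± 0.13 in PCN livers and 4.66 ± 0.09 in corn oil livers (SD, n = 5 each for both genes). These means lay below the filter value of 6.67, so no test was made for either gene. Mmp14, the membrane-bound activator of Mmp2, read 10.67, 10.56, 10.98, 10.44 and 11.03 in PCN livers, against 10.84, 10.82, 11.55, 11.02 and 10.98 in corn oil livers on type a (log2 fold change -0.31 ± 0.16 SE, adjusted p = 0.35, limma). The groups overlapped, and on type b its value was 0.02 ± 0.10 SE (adjusted p = 0.903). Mmp17 averaged 7.01 ± 0.07 in PCN livers and 7.23 ± 0.15 in corn oil livers (-0.22 ± 0.08 SE, adjusted p = 0.182), and Mmp2, a type IV collagenase of stellate cells, had 0.20 ± 0.17 and -0.10 ± 0.10 SE by its 2 probe sets (adjusted p = 0.586 and 0.643). The first of these was 0.33 without corn oil replicate 2 (adjusted p = 0.24). On type b Mmp19 averaged 7.90 ± 0.39 in PCN livers and 7.70 ± 0.04 in corn oil livers (adjusted p = 0.427), with PCN livers from 7.37 to 8.36 on both sides of all corn oil livers. The lowest was PCN replicate 5, and without it the log2 fold change was 0.34 (adjusted p = 0.0894), against 0.20 with it.

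Over the families, the share of calls was near that of all probe sets. On type a 2 of 61 tested member probe sets were called (3.28%), 1 higher and 1 lower, against 3.25% of all probe sets tested, 2.31% higher and 0.945% lower. On type b 1 of 26 was called (3.85%), against 5.4% of all, of which 3.76% were higher and 1.64% lower. At an unadjusted p below 0.05 there were 10 of 61 (16.4%) and 9 of 26 (34.6%), against 17.7% and 27.3% of all. Groups did not overlap for 4 of 61 (6.56%) and 4 of 26 (15.4%), against 6.04% and 10.4% of all. By direction these were 3 higher and 1 lower on type a, against 3.99% and 2.05% of all, and 2 higher and 2 lower on type b, against 5.06% and 5.32% of all. The log2 fold change was above 0 for 30 of 61 (49.2%) and 12 of 26 (46.2%), against 50% and 41.1% of all. The median log2 fold change of the members was 0.00 on type a and -0.02 on type b, against 0.00 and -0.03 over all tested probe sets. By family on type a, the median was 0.11 for 29 collagen probe sets, of which 18 were positive, 0.05 for 7 laminins, -0.03 for 7 metalloproteinases, 0.01 for 4 Timps and -0.10 for 12 integrins, of which 2 were positive. On type b the median was -0.07 for 10 collagen probe sets, of which 2 were positive, 0.15 for 7 integrins, of which 5 were positive, and 0.07 for 5 metalloproteinases, of which 4 were positive. Of the 3 called probe sets, Fermt2 ranked 48th by p among 11106 on type a and 96th among 10693 on type b, and Itga7 147th on type a.

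**Figure D4:**
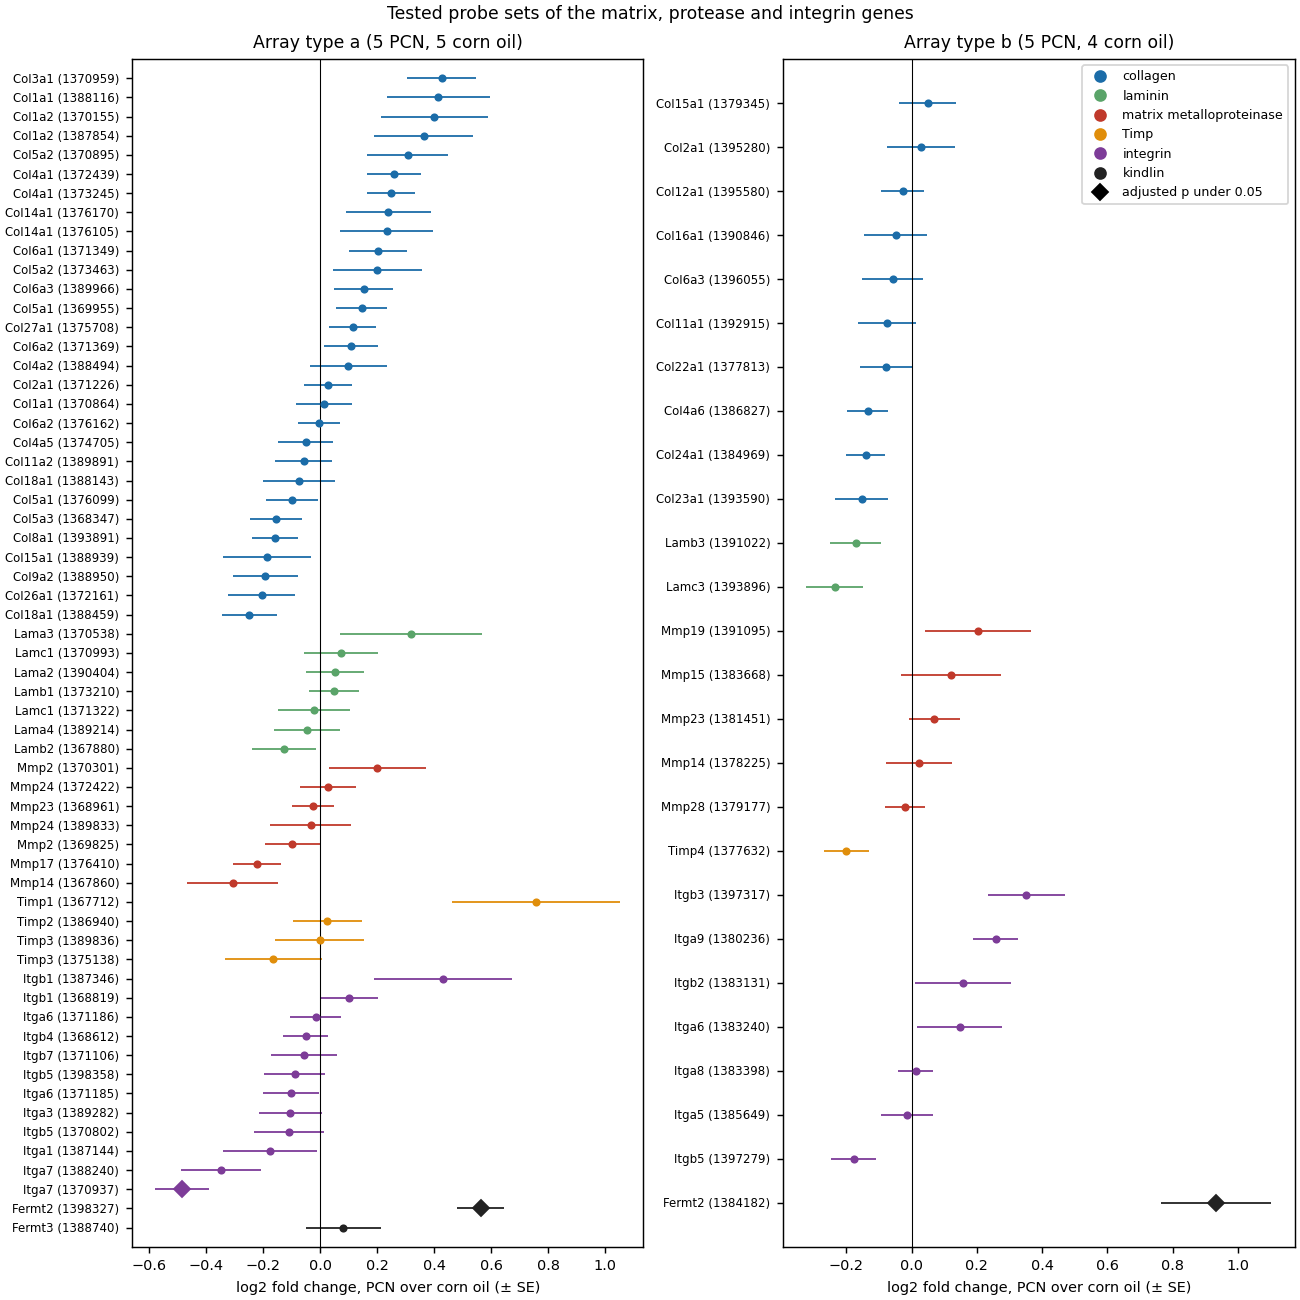
Log2 fold change, PCN over corn oil, ± SE of each of the 61 tested member probe sets of array type a (left) and the 26 of array type b (right), coloured by family and sorted by value within it; diamonds have an adjusted p below 0.05. Fermt2 lies at 0.56 and 0.93 and the called Itga7 probe set at -0.48, while the collagens of type a run from -0.25 to 0.43.

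Of these genes 8 could be tested on both array types. Fermt2 was higher on both. Itgb5 was below 0 by all 3 tested probe sets. Col2a1 had 0.03 ± 0.08 SE on type a and 0.03 ± 0.10 SE on type b, and -0.04 on type b without PCN replicate 5. Col15a1, Col6a3, Itga6, Mmp14 and Mmp23 had values of opposite sign on the array types, and each lay within 0.31 of 0 with no call. Without PCN replicate 5 the type b value of Mmp14 was -0.01, the sign it had on type a.

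Genes that act around these families were counted from lists, each gene by its brightest tested probe set. Over all probe sets tested, 3.25% were called on type a and 5.4% on type b. Those shares count probe sets and not genes, and the lists were chosen with earlier results of these data known. The counts are therefore a description, and the lists were not tested against these shares. In collagen processing 2 of 15 genes rose on type a and limma called 0 lower, with 0 lower at an unadjusted p below 0.05; on type b limma called 0 of 4, with 1 at an unadjusted p below 0.05. P4ha1, the catalytic subunit of the prolyl hydroxylase that stabilises the collagen helix, averaged 9.69 ± 0.33 in PCN livers and 8.92 ± 0.30 in corn oil livers (SD, n = 5 each), a 1.70-fold rise (log2 fold change 0.76 ± 0.18 SE, adjusted p = 0.0396, limma). P4hb, its partner subunit and a general folding enzyme, averaged 13.31 ± 0.07 in PCN livers and 13.06 ± 0.08 in corn oil livers, 1.19-fold higher (0.25 ± 0.06 SE, adjusted p = 0.0448). Leaving out 1 array ended the call of P4ha1 for 7 of 10 arrays and that of P4hb for 9 of 10, with the highest adjusted p when corn oil replicate 4 was absent (0.106 and 0.117). The call of P4ha1 was also lost in an unmoderated test (0.117), and that of P4hb there (0.0691), with the block (0.0891), with no filter (0.0754), with no intensity trend (0.0864) and under all 5 alternative scalings. In the adhesion complex 1 of 19 genes rose on type a, Tns3, a tensin that binds the beta integrin tail, at 1.38-fold by limma with an adjusted p of 0.0353 (log2 fold change 0.47 ± 0.11 SE). Leaving out 1 array ended this call for 6 of 10 arrays, with the highest adjusted p for corn oil replicate 4 (0.0973), and so did the replicate block (0.0891) and an unmoderated test (0.0761). On type b limma called 0 of 7 adhesion genes, with 2 at an unadjusted p below 0.05, and Tns3 had 0.21 ± 0.08 SE there (adjusted p = 0.123). The talins Tln1 and Tln2, vinculin and the integrin-linked kinase lay between -0.09 and 0.15 and were not called.

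Of 22 other matrix proteins and receptors on type a limma called 1 lower and 0 higher, with 1 in all at an unadjusted p below 0.05, and of 7 on type b 1 rose and 1 fell. The gene that fell was Smoc1 on both, a secreted calcium-binding matrix protein, with limma's adjusted p at 0.0119 and 0.00593 (log2 fold changes of -0.84 ± 0.15 and -0.70 ± 0.10 SE). The call on type a was lost in an unmoderated test (0.0648). The gene that rose was its relative Smoc2, at 1.36-fold (0.44 ± 0.11 SE, adjusted p = 0.0395, limma). The call of Smoc2 ended when any of 7 arrays was left out (highest at 0.111 for corn oil replicate 4), with the block (0.0866), in an unmoderated test (0.121) and on centring with the common probe sets (log2 fold change 0.17, adjusted p = 0.219). Of 16 other proteases and inhibitors and 17 genes of matrix signals, among them the TGF beta ligands and receptors, limma called 0 on type a, with 1 and 4 at an unadjusted p below 0.05. The counts of all 5 lists were the same without corn oil replicate 2 of type a and without PCN replicate 5 of type b.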

How the data were processed

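Livers of PCN-treated and corn oil-treated rats were measured on 2 Affymetrix array types. The authors deposited log2 expression values per probe set; MAS5 is listed by the submitters' processing notes, and its role, the summarization and normalization are not given in the sources used here. The base of the logarithm was inferred from the range of the values, 4.31 to 15.24 on type a and 3.10 to 14.05 on type b. The array tables were tested separately, as deposited. Of 15923 and 15333 probe sets, 12789 and 7570 map to 1 gene by GEO's platform annotation, with current symbols from RefSeq (GRCr8). The 57 control probe sets and those below the 30th percentile of the mean were left out, leaving 11106 and 10693.

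PCN livers were set against corn oil livers in limma 3.58.1 (R 4.3.3), with treatment alone, an intensity trend and Benjamini-Hochberg adjustment; the script was tested on simulated data. Correlations used exact permutation within groups (14400 arrangements, SciPy 1.17.1). Fold changes are PCN over corn oil. Arrays have no read depth. The members and lists were chosen with earlier results of these data known. Named were all called members, those whose groups did not overlap, the 2 of smallest p per family and array type, a fixed liver panel, and members with several tested probe sets; list genes were named where called. Alternatives covered filters, scalings, variance models, a replicate block, 1 probe set per gene and leaving out each array; leaving out the arrays that stood apart for the lists was added after seeing the data.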

Additional observations from a re-analysis of the deposited data

Results flagged for a closer look

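Of 130 groups of arrays tested, 15 held an array far from the rest of its group (11.5%, where chance gives about 5%), and 6 of the 15 were corn oil replicate 2 of array type a, which also stood apart over all probe sets. That liver read 11.16 for Col18a1 (the others 11.65 to 11.82), 6.61 for the dimmer Col6a2 probe set (6.82 to 6.87), 6.83 for Itga6 (7.07 to 7.12), 7.79 for Itgb1 (8.94 to 9.29), 6.91 for Lamc1 (7.55 to 7.66) and 7.89 for Mmp2 (7.16 to 7.34). It was low for 5 of these and high for Mmp2.

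PCN replicate 3 of type a stood above the other PCN livers for 3 collagens, with 8.66 for Col14a1 (8.15 to 8.27), 8.71 for Col5a2 (8.14 to 8.23) and 8.34 for Col6a3 (8.00 to 8.08), and below them for a second Lamc1 probe set, with 7.74 (8.24 to 8.41). The log2 fold change of this Col14a1 probe set was 0.24 with all arrays and 0.37 without corn oil replicate 2 (adjusted p = 0.447 and 0.105, limma). The PCN replicate 5 value of Itga7 by its uncalled probe set was 7.53 (7.03 to 7.15). A second Mmp2 probe set read 7.07 in PCN replicate 2 (6.63 to 6.71). Lama3 read 8.97 in corn oil replicate 1 (7.60 to 7.90), and Mmp14 read 11.55 in corn oil replicate 3 (10.82 to 11.02). On type b, Lamb3 read 6.34 in PCN replicate 1 (6.56 to 6.63).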

How the results depend on the processing

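The counts of called probe sets moved with the settings. On array type a, the 361 called over all probe sets became 239 with the replicate number as a block, 1051 with array weights, 104 in an unmoderated test and 154 (corn oil replicate 4) to 447 (PCN replicate 2) without 1 array. On type b, the 577 became 875 after scaling to the trimmed mean, 6493 on centring with the 100 common probe sets, 203 with the block, 1475 with array weights, 46 unmoderated and 84 (corn oil replicate 4) to 1477 (PCN replicate 5) without 1 array. That centring moved the median log2 fold change of all probe sets to -0.08 on type a and -0.31 on type b. Of the members, the 2 called on type a became 1 with the 50th percentile filter, the block and the unmoderated test, 8 with array weights (4 higher, 4 lower) and 1 (corn oil replicate 4 or PCN replicate 1) to 5 (corn oil replicate 2) without 1 array (1 to 3 higher, 0 to 2 lower). The 1 lower call on type a became 0 with that filter, the block and the unmoderated test, and 2 with the common centring. The 1 called on type b, which was higher, became 2 with the 50th percentile filter, median centring, quantile normalization, cyclic loess, robust variances and array weights, 0 with the block and the unmoderated test, 15 with the common centring (1 higher, 14 lower) and 0 (corn oil replicate 4) to 3 (PCN replicate 5) without 1 array. The common centring also turned Itga9 to -0.0215, Itga6 to -0.13 and Mmp19 to -0.0751 on type b; a turn within 1 SE of 0 in a value never called was not counted. Without the 2 farthest arrays, r was -0.55 for Col4a1 and Col4a2, 0.00785 for Lamb1 and Lamc1, -0.67 for Col1a1 and Timp1 and -0.46 for Mmp2 and Timp2. Same-numbered livers had correlations of deviations from -0.30 to 0.28 on type a and 0.02 to 0.20 on type b, so the numbers were not taken to pair them. The causes of these shifts were not tested. Signal over background limits the dim probe sets, and no test was made for them.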
